A study of Mus musculus with 12 samples.

Results

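The megalin and cubilin endocytosis genes were examined in the kidneys of mice that carry a substitution in Gne and in wild-type mice. The set holds 9 genes of the 39171 listed in the deposited table, chosen by name for their roles in protein uptake: Lrp2, Cubn, Amn, Lrpap1, Dab2, Clcn5, Ocrl, Fcgrt and Ctns. All 9 passed the filter on low counts, which kept 15589 genes for testing. The study sequenced kidney RNA from 12 male mice aged up to 3 months. Wild-type mice (n = 4) were compared with GNE M743T/M743T knock-in mice that the labels call healthy (n = 4) and with GNE M743T/M743T knock-in mice that they call sick (n = 4). Both knock-in groups carry the same homozygous substitution in GNE, the bifunctional enzyme that starts sialic acid synthesis, so the sick and healthy knock-in mice differ by observed state and not by genotype as labelled. The strain of the mice was not given in the sources used here.

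Proximal tubule cells recover filtered proteins by receptor-mediated endocytosis. Megalin (encoded by Lrp2) and cubilin (Cubn) bind albumin, vitamin carriers and hormones at the brush border, clathrin-coated pits take them in, and acid endosomes release the ligands so that the receptors return to the surface. Loss of LRP2 causes Donnai-Barrow syndrome, and loss of CUBN or AMN causes Imerslund-Gräsbeck syndrome. CLCN5 is mutated in Dent disease, OCRL in Lowe syndrome and CTNS in cystinosis. Proteinuria or a wider proximal tubule defect can occur in each of them.

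The promoter windows of the receptors, the megalin chaperone and the cubilin anchor are shown first because these 4 genes had the 4 lowest log2 fold changes among the 9 in sick against wild-type kidneys. The sequences come from RefSeq on GRCm38.p6, run 5′ to 3′ on the gene's own strand from 250 bases before the annotated start to 50 bases after it, and carry in capitals each match to 1 of 6 searched motifs. Lrp2 lies on chromosome 2 (chr2:69424340-69586065, minus strand) and its window is chr2:69585980-69586279. Cubn lies on the same chromosome (chr2:13276338-13491813, minus strand) with the window chr2:13491827-13492126. Gene spans come from GENCODE M21 and windows from RefSeq starts, which can differ. The Cubn window lies wholly upstream of the GENCODE span. Lrpap1 is on chromosome 5 (chr5:35091501-35105766, minus strand) with the window chr5:35105650-35105949, and Amn on chromosome 12 (chr12:111271095-111276426, plus strand) with the window chr12:111270846-111271145.
Lrp2: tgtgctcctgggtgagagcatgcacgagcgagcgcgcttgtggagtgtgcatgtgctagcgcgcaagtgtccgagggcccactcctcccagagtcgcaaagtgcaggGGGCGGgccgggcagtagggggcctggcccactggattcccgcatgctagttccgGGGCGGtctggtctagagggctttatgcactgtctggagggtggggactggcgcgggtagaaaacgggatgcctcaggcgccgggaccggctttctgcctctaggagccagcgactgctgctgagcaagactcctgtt
Cubn: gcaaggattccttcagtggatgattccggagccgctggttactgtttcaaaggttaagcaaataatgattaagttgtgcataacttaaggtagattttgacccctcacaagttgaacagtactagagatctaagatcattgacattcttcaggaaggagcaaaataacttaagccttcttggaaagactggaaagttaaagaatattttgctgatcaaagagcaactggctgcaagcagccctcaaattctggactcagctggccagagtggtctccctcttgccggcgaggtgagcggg
Lrpap1: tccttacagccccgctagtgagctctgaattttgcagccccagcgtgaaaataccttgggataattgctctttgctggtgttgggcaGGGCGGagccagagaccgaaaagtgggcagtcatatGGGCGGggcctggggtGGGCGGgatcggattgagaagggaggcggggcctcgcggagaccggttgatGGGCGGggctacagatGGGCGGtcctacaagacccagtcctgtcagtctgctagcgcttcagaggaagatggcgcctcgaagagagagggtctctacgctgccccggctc
Amn: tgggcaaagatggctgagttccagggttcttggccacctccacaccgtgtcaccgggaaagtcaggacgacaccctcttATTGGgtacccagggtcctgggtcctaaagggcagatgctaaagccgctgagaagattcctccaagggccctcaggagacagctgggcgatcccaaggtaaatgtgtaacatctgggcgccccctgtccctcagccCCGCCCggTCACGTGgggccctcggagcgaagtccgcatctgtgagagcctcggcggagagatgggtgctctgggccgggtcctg

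The 4 windows did not share a base composition. GC content was 65.0% in Lrp2 with 20 CpG dinucleotides, 61.3% in Lrpap1 with 18, 62.3% in Amn with 15 and 44.3% in Cubn with 5. The median over 32851 mouse promoter windows of the same length was 52.7% GC and 7 CpG. The motifs searched on both strands were the GC box GGGCGG, the CCAAT box, the TATA box TATAAA, the HNF1 core GTTAAT, the HNF4 direct repeat CAAAGTCCA and the lysosomal gene E-box TCACGTG known as CLEAR. Lrpap1 held 5 GC boxes and Lrp2 held 2. Amn held 1 GC box, 1 CCAAT box and 1 CLEAR E-box, the last of these 27 bases before the start. Among all windows, 35.7% held a GC box, 37.4% a CCAAT box and 3.77% a CLEAR E-box. No searched motif matched in the Cubn window, which says only that these letters were not in it. The 1 match to the HNF1 core among the 12 windows of the 9 members was in the second window of Dab2, at 65 bases before the start, and 7.10% of all windows held that motif. The HNF4 direct repeat matched in none of the 12, against 0.475% of all windows. These matches describe the sequences and are not binding sites shown by these data.

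The libraries held 13189478 to 19493856 counts in wild-type, 18191087 to 21925419 in healthy knock-in and 10605546 to 22633684 in sick knock-in mice. Gne itself lay between 37.0 and 43.0 CPM (counts relative to the library total after TMM scaling) in wild-type, 32.8 and 76.9 in healthy and 25.5 and 30.2 in sick kidneys. The substitution is a change of 1 residue, so the transcript level does not check the genotype labels. The tissue label was checked against markers. The summed level of 28 proximal tubule markers ran from 44612 to 48941 CPM over the wild-type mice, from 38636 to 53721 over the healthy and from 6898 to 15309 over the sick knock-in mice. A set of 9 markers of skeletal muscle, fat, adrenal gland and liver summed to 6.54 to 22.9 CPM in wild-type, 152 to 235 CPM in healthy and 11.03 to 435 CPM in sick kidneys. Of these 9, 4 skeletal muscle genes were higher in healthy than in wild-type kidneys, and 6 of the 9 were higher in sick than in wild-type kidneys, among them the fat droplet gene Cidec (4.88 to 85.3 CPM). Libraries 2 of the wild-type and 3 of the sick mice stood apart from the rest by gene length. Relative to the other wild-type mice, wild-type mouse 2 was higher by a median of 0.67 on the log2 scale over 2469 genes with under 2 kb of exon and differed by a median of -0.59 over 2551 genes with 8 kb or more; the corresponding medians in sick mouse 3 were 0.35 and -0.35. Medians of the other 10 libraries lay between -0.26 and 0.24. Lrp2, Cubn, Clcn5 and Ocrl have more than 8 kb of merged exon and Amn has 1.84 kb, so values without both libraries are given below for these 5 genes.

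**Figure D1:**
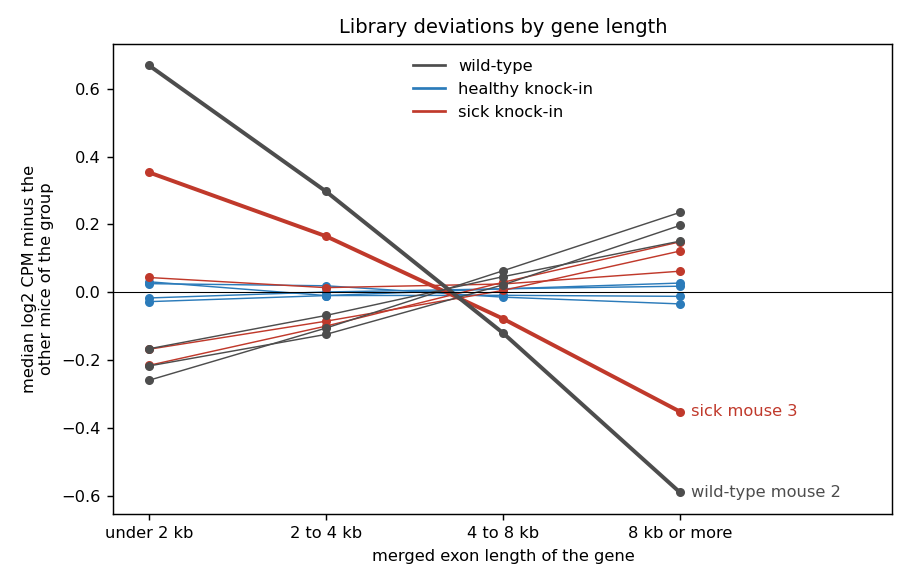
Median deviation of each library from the other mice of its group (log2 CPM, y axis) for genes in 4 classes of merged exon length (x axis), with 1 line per mouse. Wild-type mouse 2 runs from 0.67 in the shortest class to -0.59 in the longest and sick mouse 3 from 0.35 to -0.35, while the healthy knock-in mice stay between -0.03 and 0.03.

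In sick knock-in kidneys, 6 of the 9 genes fell against wild-type and 3 did not pass the test. Those that fell were the receptors Lrp2 and Cubn, the cubilin anchor Amn, the chaperone Lrpap1, the adaptor Dab2 and the endosomal transporter Clcn5, with fold changes from 6.81 down to 1.86. Ocrl, Fcgrt and Ctns gave log2 fold changes of 0.19, -0.33 and 0.02. Against healthy knock-in mice the same 6 genes fell and the same 3 did not pass. At an adjusted p below 0.05 by edgeR's quasi-likelihood test, 50.9% of all genes tested differed between sick and wild-type kidneys in either direction and 25% were lower. Between sick and healthy knock-in kidneys 46.4% differed and 21.9% were lower. The median log2 fold change over the 9 members was -1.21 against wild-type and -1.20 against healthy knock-in, beside 0.02 and 0.05 over all genes tested. The 6 genes that fell did not overlap between the sick mice and either other group, where 20.6% of all genes tested were lower without overlap against wild-type and 23.2% against healthy knock-in. The 2 comparisons share the sick libraries and are not independent of each other. In whole kidney, fewer proximal tubule cells and less RNA per cell cannot be told apart.

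**Figure D2:**
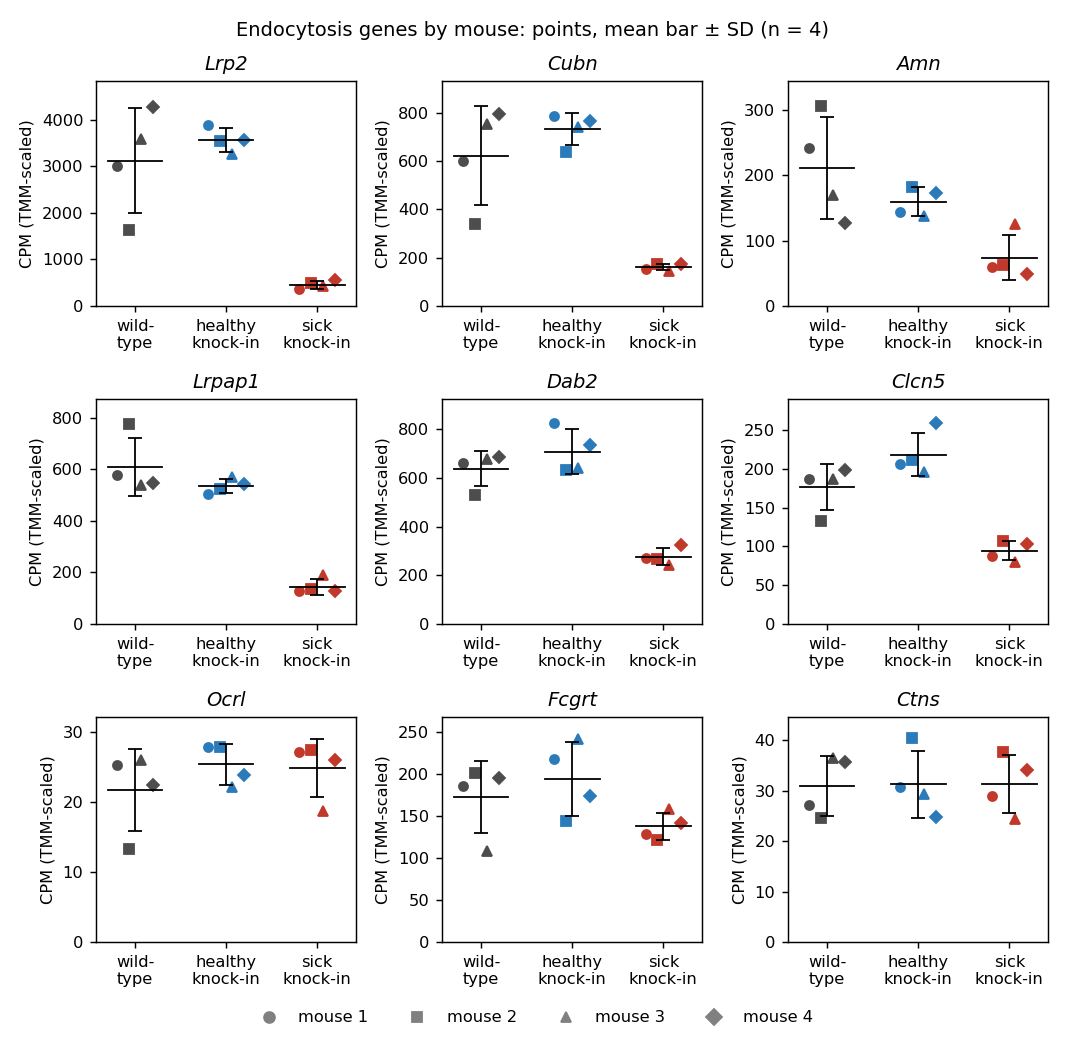
Level of each of the 9 genes (CPM on TMM-scaled library sizes, y axis starting at 0) in every mouse of the 3 groups (x axis), with symbols for mouse number, a bar at the mean and whiskers of 1 SD (n = 4). The sick knock-in mice lie below all other mice for Lrp2, Cubn, Amn, Lrpap1, Dab2 and Clcn5, and overlap the other groups for Ocrl, Fcgrt and Ctns.

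Megalin, the large multiligand receptor of the LDL receptor family, gave the most negative log2 fold change of the set. Lrp2 stood at 3002, 1630, 3577 and 4274 CPM in wild-type mice 1 to 4, and at 3884, 3538, 3260 and 3569 CPM in the healthy knock-in mice. In the sick knock-in mice it stood at 358, 497, 426 and 551 CPM. The highest sick mouse lay below the lowest of the other 8, which was wild-type mouse 2, the library with low long genes. The means were 3121 ± 1122, 3562 ± 255 and 458 ± 84.1 CPM (SD, n = 4 each). Lrp2 fell 6.81-fold against wild-type (log2 fold change -2.77 ± 0.28 SE, edgeR adjusted p = 9.83e-06) and 7.78-fold against healthy knock-in (-2.96 ± 0.28, edgeR adjusted p = 8.83e-06). Without wild-type mouse 2 and sick mouse 3, the log2 fold change was -2.95 against wild-type and -2.93 against healthy knock-in.

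Cubilin is a peripheral membrane receptor with no membrane-spanning segment of its own; it binds intrinsic factor with vitamin B12, albumin and other ligands and depends on amnionless to reach the surface. Cubn was at 600, 340, 755 and 793 CPM in wild-type, at 786, 638, 740 and 765 CPM in healthy and at 152, 172, 146 and 174 CPM in sick mice. As for Lrp2, wild-type mouse 2 was the lowest mouse outside the sick group, and the sick mice did not overlap either group. Cubn fell 3.86-fold against wild-type (-1.95 ± 0.23, edgeR adjusted p = 2.39e-05) and 4.55-fold against healthy knock-in (-2.18 ± 0.23, edgeR adjusted p = 1.6e-05). Without wild-type mouse 2 and sick mouse 3 the log2 fold changes of Cubn were -2.11 and -2.15. A non-coding transcript on the opposite strand, Gm13270, covers 2.5% of the exon bases of Cubn, and whether counting used strand was not given in the sources used here.

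Amnionless is the single-pass protein that anchors cubilin in the membrane. Amn varied widely among wild-type mice, at 241, 305, 170 and 127 CPM. It was at 144, 182, 138 and 173 CPM in healthy and at 59.4, 63.2, 125 and 48.3 CPM in sick mice. The sick mice overlapped neither other group, but sick mouse 3 lay just below the lowest wild-type mouse. Amn fell 2.85-fold against wild-type (-1.51 ± 0.31, edgeR adjusted p = 0.00147) and 2.15-fold against healthy knock-in (-1.11 ± 0.31, edgeR adjusted p = 0.0108). Amn has 1.84 kb of exon, and the 2 libraries with high short genes were the highest of their groups for it. Without both, the log2 fold change was -1.66 against wild-type and -1.49 against healthy knock-in. The authors' deposited table gives -1.46 with an adjusted p of 0.0107 for the first comparison and -1.08 with an adjusted p of 0.259 for the second. The settings of the authors' test, including any minimum fold change, were not given in the sources used here. Their adjusted p-values may therefore not be comparable with those of edgeR.

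The receptor-associated protein encoded by Lrpap1 is an endoplasmic reticulum chaperone that keeps ligands off megalin during its synthesis. Lrpap1 was at 579, 774, 537 and 546 CPM in wild-type, at 505, 523, 568 and 543 CPM in healthy and at 127, 135, 190 and 128 CPM in sick mice. Every sick mouse was lower than every other mouse. It fell 4.21-fold against wild-type (-2.07 ± 0.17, edgeR adjusted p = 3.28e-06) and 3.70-fold against healthy knock-in (-1.89 ± 0.17, edgeR adjusted p = 7.16e-06). The adjusted p against wild-type was the lowest among the 9 genes.

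Dab2 encodes the adaptor that links the cytoplasmic tail of megalin to clathrin. It was at 661, 529, 676 and 683 CPM in wild-type, at 825, 631, 640 and 733 CPM in healthy and at 272, 265, 243 and 324 CPM in sick mice, with no overlap. Dab2 fell 2.31-fold against wild-type (-1.21 ± 0.15, edgeR adjusted p = 4.04e-05) and 2.56-fold against healthy knock-in (-1.36 ± 0.15, edgeR adjusted p = 2.5e-05). The symbol also labels another entry of the table with 96 counts over all 12 libraries, whose identifier is absent from the annotation used and which was not counted as a member. Dab2 lies at chr15:6299788-6440712 on the plus strand, and a processed pseudogene on the opposite strand, Gm18888, covers 2.9% of its exon bases.

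ClC-5, encoded by Clcn5 on chromosome X (chrX:7153810-7319358, minus strand), is the chloride-proton exchanger of early endosomes. Clcn5 was at 187, 132, 187 and 198 CPM in wild-type, at 207, 211, 196 and 259 CPM in healthy and at 88.3, 107, 80.1 and 104 CPM in sick mice. The sick mice were below all others, with wild-type mouse 2 again the nearest. Clcn5 fell 1.86-fold against wild-type (-0.89 ± 0.16, edgeR adjusted p = 0.000475) and 2.30-fold against healthy knock-in (-1.20 ± 0.16, edgeR adjusted p = 7.02e-05). Without wild-type mouse 2 and sick mouse 3 the values for Clcn5 were -0.94 and -1.14. When only library totals were used for scaling, the change against wild-type was -0.30 with an edgeR adjusted p of 0.105. The authors' deposited table gives -0.90 with an adjusted p of 0.0657, from a test whose settings were not given, as for Amn.

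OCRL, a phosphoinositide 5-phosphatase of coated pits and endosomes, is also encoded on chromosome X (chrX:47912387-47965868, plus strand). Ocrl was at 25.3, 13.3, 26.0 and 22.4 CPM in wild-type, at 27.8, 27.8, 22.1 and 23.8 CPM in healthy and at 27.1, 27.4, 18.6 and 26.1 CPM in sick mice, and the groups overlapped. Wild-type mouse 2 and sick mouse 3 had the lowest values of their groups. The log2 fold change was 0.19 against wild-type (95% interval -0.25 to 0.63, edgeR adjusted p = 0.454) and -0.03 against healthy knock-in (-0.47 to 0.41, edgeR adjusted p = 0.914). Without both mice, Ocrl gave 0.12 and 0.08 and did not pass either.

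Ctns encodes cystinosin, which exports cystine from lysosomes. It was at 27.1, 24.6, 36.5 and 35.6 CPM in wild-type, at 30.7, 40.5, 29.4 and 24.7 CPM in healthy and at 29.0, 37.7, 24.5 and 34.1 CPM in sick mice, and the 3 groups covered nearly the same range. The log2 fold change was 0.02 against wild-type (95% interval -0.39 to 0.43, edgeR adjusted p = 0.938) and 0.00 against healthy knock-in (-0.41 to 0.42, edgeR adjusted p = 0.991). For Ocrl and Ctns, the intervals allow a change of at most 0.63 and 0.43 in either direction on the log2 scale. With library totals alone, both genes passed as higher in sick than in wild-type kidneys, at 0.79 for Ocrl (edgeR adjusted p = 0.00745) and 0.62 for Ctns (edgeR adjusted p = 0.0213). That scaling moved the median over all genes tested to 0.61.

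Fcgrt encodes the heavy chain of the neonatal Fc receptor, which returns albumin and IgG from acid endosomes. It was at 186, 201, 109 and 195 CPM in wild-type, at 217, 144, 241 and 173 CPM in healthy and at 129, 122, 158 and 142 CPM in sick mice. Wild-type mouse 3 was the lowest of all 12, and the sick group overlapped both others. The log2 fold change was -0.33 ± 0.21 against wild-type (edgeR adjusted p = 0.206) and -0.49 ± 0.21 against healthy knock-in (edgeR adjusted p = 0.0671). Fcgrt lay near the threshold. Without wild-type mouse 3 it passed in both comparisons, at -0.50 against each group with edgeR adjusted p values of 0.0341 and 0.0265, and without healthy mouse 2 it passed against healthy knock-in at -0.62 (edgeR adjusted p = 0.032).

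**Figure D3:**
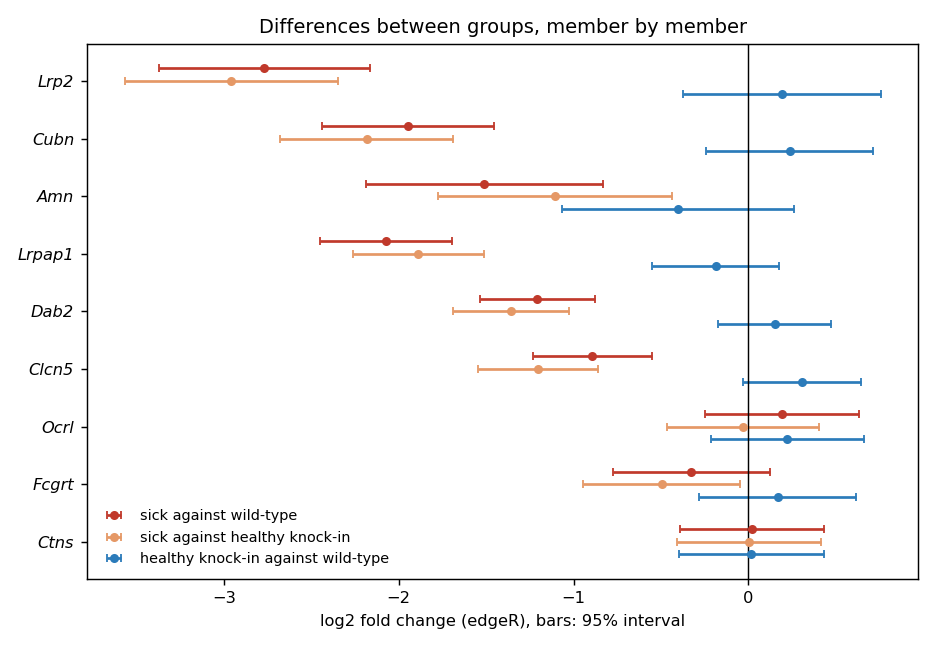
Log2 fold change of each gene (x axis) with its 95% interval for the 3 comparisons. Intervals for the 6 genes from Lrp2 to Clcn5 lie below 0 in both comparisons with sick mice, and all 9 intervals of healthy knock-in against wild-type include 0.

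Healthy knock-in mice were compared with wild-type to ask how the same genotype without the sick state relates to the set. None of the 9 genes passed, in a comparison where 0.314% of all genes tested did by edgeR, 700 genes had an unadjusted p below 0.05, and DESeq2 and limma-voom called 87 and 86 genes beside 49. No member had an unadjusted p below 0.05. The nearest was Clcn5, at 0.31 ± 0.16 on the log2 scale (edgeR adjusted p = 0.912). The edgeR adjusted p of the others ran from 0.912 to 0.99. Lrp2 differed by 0.19 with a 95% interval of -0.37 to 0.76, Cubn by 0.24 with -0.24 to 0.71, and Amn by -0.40 with -1.07 to 0.26. The value for Lrp2 was -0.02 once wild-type mouse 2 was left out. All 9 genes overlapped between these groups, where 3.97% of all genes tested did not.

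Levels per kilobase of merged exon were used to order the 9 genes within a group. In wild-type kidneys Lrp2 was first at 187 ± 67.2 CPM per kb and Lrpap1 the next at 148 ± 27.1 (SD, n = 4), a difference within their spread. Amn followed at 114 ± 42.5, Dab2 at 86.8 ± 9.90 and Fcgrt at 82.0 ± 20.4, with ranges that overlapped from each to the next. Cubn was at 41.6 ± 13.8 and overlapped Fcgrt in range, while Clcn5 at 15.4 ± 2.60, Ctns at 9.13 ± 1.77 and Ocrl at 2.30 ± 0.616 CPM per kb each lay wholly below the gene before it. In sick kidneys Lrp2 was the fifth at 27.4 ± 5.04 CPM per kb. Fcgrt came first there at 65.4 ± 7.50, before Amn at 40.2 ± 18.8, Dab2 at 37.6 ± 4.67 and Lrpap1 at 35.2 ± 7.34. The ranges of Amn and Fcgrt overlapped in sick kidneys. With the length of the longest transcript in place of merged exons, Lrpap1 at 204 and Lrp2 at 202 CPM per kb changed places in wild-type kidneys, as did Dab2 at 137 and Amn at 124. In sick kidneys Fcgrt stayed first, and the next places went to Dab2 at 59.2, Lrpap1 at 48.5 and Amn at 43.5 CPM per kb.

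Ratios between partners within a library need no scaling between libraries. The 8 ratios were compared over 3 pairs of groups, with 24 exact permutation tests in all, where 4 mice against 4 cannot give a two-sided p below 0.0286. The 10 tests at that smallest p had a Benjamini-Hochberg adjusted p of 0.0686, so no ratio passed the correction. Lrp2 had 5.0, 4.79, 4.74 and 5.39 counts for each count of Cubn in wild-type mice and 4.94, 5.55, 4.40 and 4.66 in healthy mice. In sick mice the ratio was 2.35, 2.89, 2.91 and 3.17. All 4 sick mice lay below the other 8, and wild-type mouse 2 lay within the range of its group, although both receptor levels were low in it. The ratio was 1.77-fold lower in sick than in wild-type mice (-0.82 on the log2 scale, exact p = 0.0286, adjusted 0.0686) and 1.73-fold lower than in healthy mice.

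The adaptor and the exchanger had more counts per count of megalin in sick mice. Dab2 had 0.220, 0.325, 0.189 and 0.160 counts per count of Lrp2 in wild-type and 0.761, 0.534, 0.569 and 0.588 in sick mice, 2.82-fold more (exact p = 0.0286, adjusted 0.0686), and all 4 sick mice were above all 8 others. For Clcn5 per Lrp2 the sick mice gave 0.247, 0.215, 0.188 and 0.188 and the wild-type mice 0.0622, 0.0811, 0.0523 and 0.0464, 3.52-fold more (exact p = 0.0286, adjusted 0.0686). The ratio of Lrpap1 to Lrp2 overlapped between sick and wild-type mice because wild-type mouse 2 had the highest of all 12, at 0.475. Against healthy mice it was 2.10-fold higher without overlap (exact p = 0.0286, adjusted 0.0686). The ratio of Amn to Cubn was 0.401, 0.896, 0.225 and 0.160 in wild-type and 0.391, 0.367, 0.856 and 0.278 in sick mice, with wild-type mouse 2 and sick mouse 3 highest in their groups and full overlap (exact p = 0.629).

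A further 3 ratios set a member beside a partner outside the set. Fcgrt pairs with beta-2-microglobulin (B2m), which rose in sick against wild-type kidneys by 0.51 (edgeR adjusted p = 0.0389) and was 0.49 higher against healthy knock-in (edgeR adjusted p = 0.0508). Fcgrt per B2m was 0.553, 0.406, 0.378 and 0.420 in wild-type and 0.295, 0.216, 0.229 and 0.249 in sick mice, 1.77-fold lower without overlap (exact p = 0.0286, adjusted 0.0686). Ocrl per Inpp5b, the paralogous 5-phosphatase, was 0.205, 0.117, 0.180 and 0.151 in wild-type and 0.461, 0.367, 0.215 and 0.406 in sick mice, 2.18-fold higher (exact p = 0.0286, adjusted 0.0686). Sick mouse 3, at 0.215, lay just above wild-type mouse 1. Against healthy knock-in mice the ratio of Ocrl to Inpp5b was 1.99-fold higher with overlap (exact p = 0.0571, adjusted 0.105). Inpp5b itself fell, from 133 ± 16.8 to 71.1 ± 12.4 CPM (log2 fold change -0.90 ± 0.18, edgeR adjusted p = 0.00099). Ctns per Lamp1, a lysosomal membrane protein, was 1.46-fold higher with overlap (exact p = 0.0857, adjusted 0.147). Lamp1 itself was called lower in sick kidneys, at 869, 1051, 1219 and 914 CPM beside 1389, 1441, 1389 and 1578 CPM in wild-type, while Ctns did not pass.

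**Figure D4:**
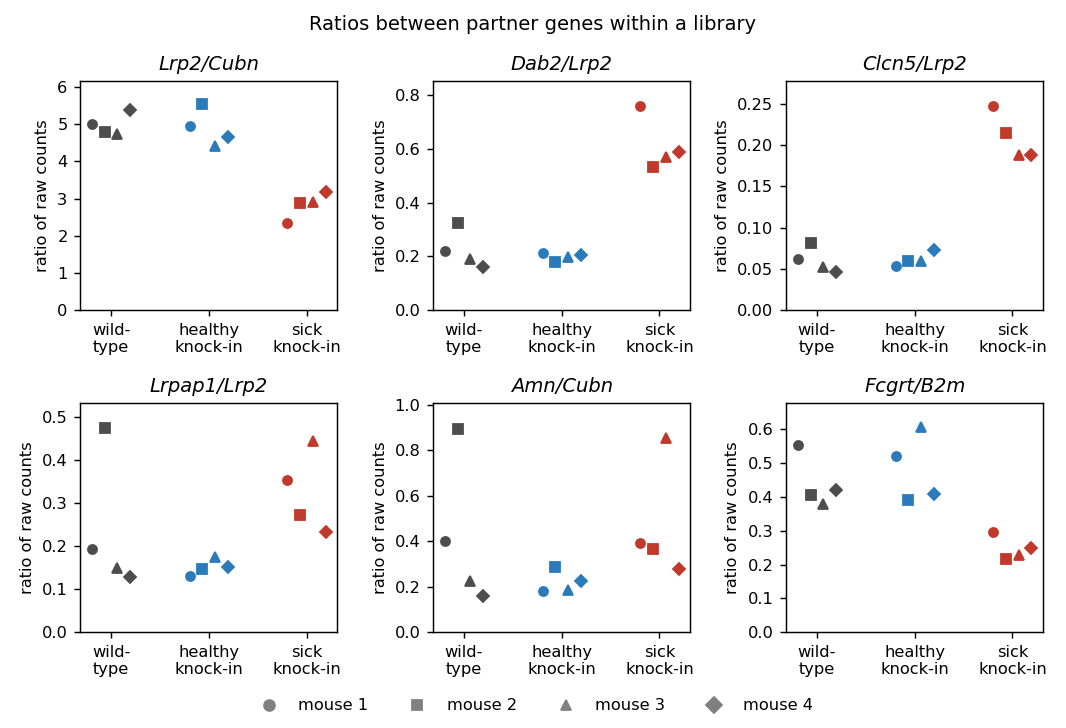
Ratio of raw counts between partner genes (y axis, from 0) in each mouse of the 3 groups (x axis), with symbols for mouse number. The sick mice lie apart from both other groups for Lrp2/Cubn, Dab2/Lrp2, Clcn5/Lrp2 and Fcgrt/B2m, while wild-type mouse 2 lies above all sick mice for Lrpap1/Lrp2 and Amn/Cubn, and wild-type mouse 1 and healthy mouse 2 lie within the sick range for Amn/Cubn.

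The members were also set beside 28 proximal tubule markers in the same library, by subtracting the mean log2 CPM of the markers. None of the 9 members is among the 28. The marker mean was 9.54 ± 0.14 in wild-type, 9.57 ± 0.20 in healthy and 7.51 ± 0.39 in sick kidneys, 2.03 lower in sick than in wild-type. Relative to the markers, Cubn changed by 0.15 and Lrpap1 by -0.05 between wild-type and sick mice, and their ranges overlapped. With the median of the markers in place of the mean, these changes were 0.39 for Cubn and 0.19 for Lrpap1, whose sign turned. Lrp2 was 1.99 ± 0.50 above the marker mean in wild-type and 1.31 ± 0.39 in sick mice, a difference of -0.67 with overlapping ranges, or -0.44 by the marker median. In healthy knock-in mice Lrp2 was 2.23 ± 0.14 above the marker mean. Their range (2.05 to 2.39) lay wholly above that of the sick mice (0.77 to 1.70). By the marker median these 2 groups did not overlap either, with sick mice up to 2.02 and healthy mice from 2.12. Amn was 0.50 higher relative to the marker mean in sick than in wild-type mice, again with overlap, and 0.74 higher relative to the median. Dab2 was 0.82 and Clcn5 1.14 higher relative to the markers, and their sick ranges lay above the wild-type ranges. The differences for Fcgrt, Ctns and Ocrl were 1.74, 2.05 and 2.25, close to the size of the markers' own fall. These differences are descriptions without a test.

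**Figure D5:**
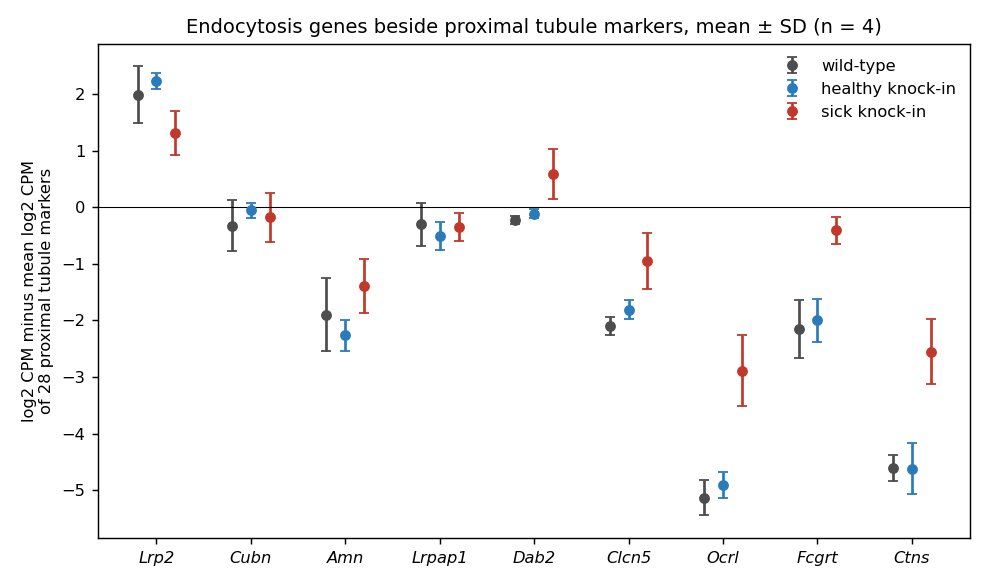
Log2 CPM of each gene minus the mean log2 CPM of 28 proximal tubule markers in the same library (y axis), as the mean and SD of 4 mice per group (x axis, genes). By this mean Cubn differs by 0.15 and Lrpap1 by -0.05 between wild-type and sick mice (0.39 and 0.19 by the marker median), Lrp2 by -0.67 (-0.44 by the median), and Fcgrt, Ctns and Ocrl are 1.74 to 2.25 higher.

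Markers of other cell types moved with the sick group as well, and their part in the member values was not tested. Of the proximal tubule markers 26 of 28 fell against wild-type, led in level by Acsm2 (7765 to 664 CPM). All 18 macrophage and other leukocyte markers rose, and their summed level ranged over 299 to 629 CPM in the wild-type, 494 to 707 CPM in the healthy and 2037 to 3429 CPM in the sick mice. Cd74 was the most abundant of them, at 216 ± 90.6 CPM in wild-type and 1241 ± 319 CPM in sick kidneys, and Lyz2 went from 31.1 to 418 CPM. All 10 fibroblast and all 15 tubule injury markers rose, among them Col3a1 (127 to 1232 CPM), Col1a2 (113 to 1116 CPM), Spp1 (516 to 11264 CPM) and Clu (187 to 1099.9 CPM). The 10 endothelial markers gave 0 higher and 1 lower, with summed levels of 755 to 906 CPM in wild-type and 730 to 851 CPM in sick kidneys. Distal tubule markers gave 2 higher and 7 lower of 16, with Egf falling from 1380 to 47.8 CPM and Umod at 3070 and 1339 CPM (edgeR adjusted p = 0.0992). Podocyte markers gave 3 higher and 2 lower of 10. With library totals alone, the higher and lower counts became 4 and 0 for endothelial, 5 and 6 for thick limb to collecting duct and 5 and 0 for podocyte markers. Under that scaling, 8420 of all 15589 genes tested were higher and 1605 lower.

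The wider endocytic pathway was read from lists of genes with known roles. Among 24 clathrin coat and adaptor genes, 5 rose, 6 fell and 13 did not pass in sick against wild-type kidneys, with a median log2 fold change of 0.00 beside 0.02 over all genes tested. Over all 15589 genes tested, 4032 rose and 3901 fell, shares near those of this list. The clathrin light chain Cltb (-0.88), the endocytic motor Myo6 (-0.76) and Inpp5b fell. The actin-linking coat proteins Hip1 (21.0 ± 5.70 to 73.4 ± 21.6 CPM, 1.81) and Hip1r (0.65) and the scaffold Itsn1 (0.77) rose. Among 24 genes of endosomal sorting and recycling, 1 rose and 10 fell, with a median of -0.27. The transferrin receptor Tfrc fell from 151 ± 16.2 to 26.2 ± 9.81 CPM (-2.53 ± 0.22, edgeR adjusted p = 4.29e-06), Rab38 by 1.20 and the sorting nexin Snx27 by 1.09 on the log2 scale, while Ehd4, of endosomal recycling, rose by 0.92.

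Endosome acidification, the process in which ClC-5 takes part, had with TMM scaling more lower genes than any other of the 6 pathway lists. Of 24 genes of the proton pump and endosomal ion exchange, 16 fell, 1 rose and 7 did not pass, with a median of -0.75. For this list and the lysosomal list below, the shares over all genes tested were 25% lower and 50.9% called in either direction. The pump subunit Atp6v1a fell from 703 ± 86.3 to 277 ± 38.6 CPM (-1.34 ± 0.15, edgeR adjusted p = 1.53e-05). Clcn3, a relative of Clcn5, fell by 1.37 on the log2 scale, and the apical sodium-proton exchanger Slc9a3 by 1.75. Atp6v0a1 rose by 0.29 (edgeR adjusted p = 0.0268). Against healthy knock-in mice, 17 of the 24 fell and none of the 24 rose, where 21.9% of all genes tested were lower. Of 26 lysosomal genes, 8 rose and 11 fell, with a median of -0.21. The glycosidases Glb1 (-1.85) and Neu1 (-1.55) fell, and Hexa (1.37), the protease Ctsd (1.15) and Gla (0.88) rose. Neu1 removes sialic acid from glycoproteins.

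Other receptors of the LDL receptor family and of protein uptake did not share a single direction. Of 17 tested, 5 rose, 4 fell and 8 did not pass, with a median of -0.11. These counts were near the shares over all genes tested, of which 50.9% differed and 25% were lower. Lrp1, a receptor of the same family that also binds the chaperone encoded by Lrpap1, rose from 78.7 ± 21.3 to 426 ± 141 CPM (2.44 ± 0.26, edgeR adjusted p = 1.26e-05). The healthy knock-in mice were at 111 ± 8.96 CPM. The sorting receptor Sort1 (1.17) and the lipoprotein receptor Scarb1 (1.02) rose, and the folate receptor Folr1 (-1.77), the transcobalamin receptor Cd320 (-0.80) and Vldlr (-0.65) fell. Of 22 genes for ligands of megalin and cubilin and for handling their cargo, 9 rose and 9 fell, with a median of 0.57. The transcobalamin gene Tcn2 fell from 2462 ± 334 to 517 ± 138 CPM (-2.25 ± 0.22, edgeR adjusted p = 8.02e-06), and Apom and Alb, both low in kidney at 55.1 and 5.32 CPM in wild-type, fell by 3.29 and 3.62. Apoe rose from 125 ± 33.9 to 1561 ± 375 CPM (3.64 ± 0.24, edgeR adjusted p = 1.19e-06), and Mt2 and Rbp4 rose by 3.27 and 3.19. Rbp4 stayed low, at 5.11 ± 3.61 CPM in sick kidneys.

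The balance within these lists depended on scaling between libraries. With library totals alone, higher and lower counts in sick against wild-type kidneys became 13 and 0 for the coat list, 11 and 3 for endosomal sorting and 6 and 6 for acidification. They became 13 and 3 for the lysosome, 8 and 1 for the receptors and 11 and 7 for the ligands. Over all 15589 genes tested, 8420 were higher and 1605 lower under that scaling, so the shift was not particular to these lists. Of the genes named above from these lists, Lamp1 turned to 0.07 under that scaling and no longer passed (edgeR adjusted p = 0.65). The others kept their sign, but Cltb, Myo6, Inpp5b, Rab38, Cd320 and Vldlr no longer passed. Lrp2, Cubn, Lrpap1, Dab2 and Amn still fell against wild-type. No gene of these 6 lists passed in healthy knock-in against wild-type kidneys, where only 0.314% of all genes tested did.

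The genes whose profile over the 12 libraries was nearest to Lrp2 were sought among 9464 genes with a mean of at least 10 CPM, by the root mean square distance of centred log2 CPM. They were Abat at 0.29, Dnajc6 at 0.30, Erc2 at 0.31, Kl at 0.32 and Ace at 0.32. Kl encodes Klotho and Ace the angiotensin-converting enzyme of the brush border. Cubn ranked 23 by this measure at 0.40, Lrpap1 244, Dab2 492, Clcn5 745 and Amn 1249. The genes nearest to Cubn were Map3k15 at 0.12, mt-Nd5 at 0.14, Lrrk2 at 0.16, Aldh6a1 at 0.19 and Ankrd13c at 0.20, and Lrp2 ranked 146. All profiles share the same 12 libraries with their depth and length differences, so these ranks describe likeness and nothing further.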

How the data were processed

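Kidney RNA from 12 mice was sequenced after miRvana extraction and TruSeq library preparation, per the labels' protocols. Per the submitters' processing notes the build was GRCm38 and the tools included DESeq2 1.12.4, TopHat2 2.0.11, Trim Galore 0.3.7 and Cufflinks. Not given in the sources used here are the counting program, its strand setting and the annotation. The deposited table holds raw counts per gene for each mouse, the authors' normalised counts, which were not analysed here, and the authors' log2 fold changes and adjusted p-values, which are quoted only where named.

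The deposited counts were analysed in R 4.3.3 with edgeR 4.0.16: filterByExpr, TMM scaling, 1 quasi-likelihood fit over the 3 groups and Benjamini-Hochberg adjustment over all 15589 genes tested, with an adjusted p threshold of 0.05. CPM are on TMM-scaled library sizes, and log2 CPM carry a prior count of 2. Common biological variation was 0.27. Counts per library were highest for Lrp2, at 5557 to 67402, and lowest for Ocrl, at 226 to 826. On data simulated for sick against wild-type over 14771 genes, a log2 change of 2 was recovered for 96 of 99 genes and a log2 change of 1 for 42 of 96, with 4 false calls. The simulation changed few genes, balanced up and down, with the same spread for all genes and no shift by gene length. In the real comparison 50.9% of genes differed, so these rates do not carry over to it.

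The 9 genes were given by name. All 9 are described, with Gne, the ratio partners B2m, Inpp5b and Lamp1, up to 3 genes called higher and 3 called lower with the most extreme changes in sick against wild-type in each pathway list (at least 5 CPM in the higher group), the 2 most abundant genes of the marker lists, and the 5 genes nearest to Lrp2 and Cubn. Some genes that this rule names are not reported here. Members and lists were chosen with earlier results of these data known. Of the names in the lists, 6 were found under an older symbol. Exon lengths come from GENCODE M21 on GRCm38, and 15443 of 15589 genes tested (99.1%) had one. Promoter windows come from RefSeq, and all 9 members matched. Over 12 pairs of same-numbered mice, the correlation of deviations from group means ran from -0.26 to 0.24. Differently numbered pairs were not set beside them, so this range cannot show whether the mice were matched. The labels do not say that equal numbers mark matched mice, so they were not treated as pairs. The mice are separate animals per the design text. Alternatives covered scaling (DESeq2 size factors, upper quartile, library totals), filters, DESeq2 1.42.0, limma-voom (limma 3.58.1), the 8 libraries of a comparison alone, a replicate block, a threshold of 0.01 and leaving out each mouse. Leaving out wild-type mouse 2 with sick mouse 3, and removing the trend with gene length, were chosen after seeing the data.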

Additional observations from a re-analysis of the deposited data

Results flagged for a closer look

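Among 51 sets of 4 mice checked, 4 held a mouse far from the others of its group, with a gap to the nearest mouse above 0.829 of the group's range. Chance alone marks about 1 in 20 such sets. Dab2 was at 529 CPM in wild-type mouse 2, below the other 3 wild-type mice, with a gap of 0.855 of the range. Ocrl was at 18.6 CPM in sick mouse 3, below the other sick mice, with 0.844. Lrpap1 was at 190 CPM (189.7) in sick mouse 3, above the other sick mice, with 0.871. These 3 values belong to the 2 libraries whose levels shifted with gene length, and whether that shift accounts for them was not tested. Fcgrt was at 109 CPM (108.7) in wild-type mouse 3, below the other wild-type mice, with 0.838, and that library did not stand apart by gene length.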

How the results depend on the processing

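Over 27 fold changes (9 genes in 3 comparisons), every call and every called direction held under DESeq2 size factors, upper-quartile scaling, both other filters, DESeq2's Wald test and limma-voom. Library totals alone changed 6: in sick against wild-type, Clcn5 no longer passed (-0.30) and Ocrl (0.79) and Ctns (0.62) passed as higher; in sick against healthy knock-in, Amn no longer passed (-0.54), Ctns passed (0.58) and Ocrl turned from -0.03 to 0.56 and passed. That scaling moved the median of all genes to 0.61 and 0.63 and the share of called genes that were higher from 50.8% to 84.0% and from 52.7% to 85.8%; upper-quartile scaling moved the medians to 0.15 and 0.17. Amn against healthy knock-in (-1.11, edgeR adjusted p = 0.0108) did not pass a threshold of 0.01. Fcgrt against healthy knock-in passed with the 8 libraries alone (-0.50), without wild-type replicate 2 and sick replicate 3 (-0.57) and with the gene length trend removed (-0.51). Leaving out 1 mouse moved Fcgrt between -0.50 and -0.26 against wild-type and between -0.62 and -0.38 against healthy knock-in, and Amn between -1.89 and -1.29 and between -1.49 and -0.95. Genes called in healthy knock-in against wild-type numbered 49 by edgeR, 87 by DESeq2 and 86 by limma-voom. With the replicate block, 7480, 6809 and 44 genes were called in place of 7933, 7232 and 49, and no call among the 9 genes changed. Exon length by longest transcript moved levels per kb, as given with them. Each of the 9 genes had at least 226 counts in every library.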
